A study of Mus musculus with 18 samples.

Results

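The genes described here are 10 genes that encode Sprouty proteins (Spry1, Spry2, Spry4), the related Spred proteins (Spred1, Spred2) and dual-specificity phosphatases (Dusp2, Dusp4, Dusp5, Dusp6, Dusp10), out of 23337 genes in the count table. They were selected by symbol from families that restrain ERK and related kinases, with the levels of these same libraries already known. Which contrast drew attention to them was not recorded, so their levels and fold changes describe these libraries, and each adjusted p places a gene among all genes tested and is not independent support. The libraries held poly-A RNA of invariant NKT (iNKT) cells, T cells with a semi-invariant receptor for glycolipids on CD1d, sorted from the thymus of BALB/c mice into NKT1, NKT2 and NKT17 cells. WT mice carried normal Zap70, and SKG mice carried a spontaneous point mutation in Zap70, the kinase that relays T cell receptor signals, in every cell. There were 3 libraries in each of 6 groups (18 in all), from mice whose age and number per library the labels do not give. NKT1 cells were gated as tetramer-binding, ICOS low and CD49a positive, NKT2 cells as ICOS high, CD4 high, TCR beta high and negative for CD49a and Sdc-1, and NKT17 cells as ICOS high and Sdc-1 positive. The counts cannot show the Zap70 mutation itself.

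When a T cell receptor is engaged, Ras guanine nucleotide exchange factors load Ras with GTP, and Ras then starts the kinase relay of RAF, MEK and ERK. ERK activity induces genes whose products switch the pathway off again. Sprouty and Spred proteins act on the pathway around Ras and RAF, whereas dual-specificity phosphatases remove the activating phosphates from the MAP kinases themselves, DUSP6 from ERK in the cytoplasm, DUSP2, DUSP4 and DUSP5 in the nucleus, and DUSP10 mainly from p38 and JNK. In T cells the transcripts of several of these genes are used as readouts of recent ERK signaling.

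The bases upstream of the start site are shown for the 4 genes on which the description turns: Spry2 and Dusp6, which differed between SKG and WT cells in opposite directions, and Dusp2 and Dusp5, which stood high together in some WT libraries. They are the 250 bases before the RefSeq start, on build GRCm38.p6 and read 5′ to 3′ on the strand of the gene, at chr14:105896820-105897069 (minus strand) for Spry2, chr10:99262981-99263230 (plus) for Dusp6, chr2:127335909-127336158 (plus) for Dusp2 and chr19:53528895-53529144 (plus) for Dusp5. Capitals mark matches, on either strand, to the motifs given in the paragraph that follows.
Spry2: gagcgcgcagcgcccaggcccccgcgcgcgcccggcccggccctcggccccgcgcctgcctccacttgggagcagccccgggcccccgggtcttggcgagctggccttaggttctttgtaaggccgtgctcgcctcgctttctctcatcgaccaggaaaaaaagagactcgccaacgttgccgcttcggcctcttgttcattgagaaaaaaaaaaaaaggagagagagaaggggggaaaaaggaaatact
Dusp6: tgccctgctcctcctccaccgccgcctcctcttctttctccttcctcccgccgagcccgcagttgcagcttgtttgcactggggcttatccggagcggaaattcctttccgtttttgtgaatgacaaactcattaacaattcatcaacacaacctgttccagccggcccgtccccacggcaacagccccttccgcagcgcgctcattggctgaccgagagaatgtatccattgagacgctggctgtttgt
Dusp2: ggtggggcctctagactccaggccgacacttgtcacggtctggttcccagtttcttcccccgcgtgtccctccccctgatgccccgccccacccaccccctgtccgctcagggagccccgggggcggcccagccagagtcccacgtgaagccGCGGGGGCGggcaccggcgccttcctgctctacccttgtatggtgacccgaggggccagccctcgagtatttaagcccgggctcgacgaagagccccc
Dusp5: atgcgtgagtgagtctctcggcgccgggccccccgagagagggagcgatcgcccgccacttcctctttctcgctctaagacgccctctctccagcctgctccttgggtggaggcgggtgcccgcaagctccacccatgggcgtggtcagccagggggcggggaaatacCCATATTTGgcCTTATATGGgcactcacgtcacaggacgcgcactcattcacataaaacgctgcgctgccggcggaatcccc

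The RefSeq table held this stretch for 8 of the 10 genes, and Spry4 and Dusp4 had none. On both strands 9 motifs were searched. Those of factors that respond to receptor signals were the ETS family motif CCGGAA, the AP-1 motif TGANTCA, the cyclic AMP response element TGACGTCA, the EGR family motif GCGNGGGCG, the core CCATATNNG of the CArG box and the NFAT family motif TGGAAA. The others were the RUNX family motif TGTGGT, the FOXO family motif TGTTTAC and the core promoter box TATAAA. No match overlapped another. Dusp5 held 2 neighbouring CArG cores, CArG boxes being sites of serum response factor, from 82 to 74 and from 71 to 63 bases before the start, and 1.26% of all 32851 promoters held at least 1. Dusp2 held an EGR site from 98 to 90 bases before the start, and 4.70% of all promoters did. None of the 9 motifs was found in the stretches of Spry1, Spry2, Spred1, Spred2, Dusp6 or Dusp10. The ETS and NFAT motifs stood in 12.0% and 18.6% of all promoters, so most promoters lacked either. Only these exact strings were searched, and shorter or variant sites of the same factors were not. All 8 stretches were richer in G and C (56.0% in Spred2 to 70.8% in Spred1) than the median promoter (52.4%). On build NCBIM37, the gene Spry2 lies at chr14:106291166-106296036 (minus strand), Dusp6 at chr10:98725865-98730122 (plus), Dusp2 at chr2:127161895-127164112 (plus), Dusp5 at chr19:53603599-53616921 (plus) and Dusp10 at chr1:185837181-185899515 (plus). In the GENCODE M1 annotation no other gene overlapped an exon of any of the 10 genes.

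Library depth ran from 4391029 to 8895917 counts, and levels are given as CPM, counts relative to the TMM-scaled total of the library. Calls needed a fold change of at least 1.5 and an adjusted p under 0.1 (edgeR quasi-likelihood test, adjusted by Benjamini-Hochberg over the 11118 genes tested). The sorted subsets carried their defining genes. The summed CPM of 6 NKT1 markers was 4550 to 5160 in WT and 3750 to 4150 in SKG NKT1 libraries. It was lower in SKG without overlap in the other subsets too, at 301 to 423 against 211 to 298 in NKT2 and 317 to 364 against 185 to 250 in NKT17 libraries. Most of it was Il2rb (mean 298 CPM in WT and 182 CPM in SKG NKT17), whereas Cxcr3 (1.88 and 5.88 CPM) and Klrd1 (0.195 and 2.28 CPM) were higher in SKG NKT17. Of these 6 genes 0 were called between genotypes in NKT1, 3 were lower in SKG NKT2, and 1 was higher and 1 lower in SKG NKT17 cells. The sum of 6 NKT2 markers was 2310 to 2450 in WT and 1660 to 2040 in SKG NKT2 libraries, and at most 1530 elsewhere. Of these NKT2 markers 2 were called lower in SKG NKT2, 1 higher in SKG NKT1, and 1 higher and 1 lower in SKG NKT17 cells. The sum of 6 NKT17 markers was 2380 to 2480 in WT and 2390 to 2450 in SKG NKT17 libraries. Elsewhere it was at most 14.3, with 1.75 to 7.15 in WT and 6.61 to 14.3 in SKG NKT2 libraries. Of these NKT17 markers 1 was called higher and 2 lower in SKG NKT17, 1 higher in SKG NKT2, and 0 in SKG NKT1 cells. The sum of 5 B cell markers was 24.8 to 40.7 CPM in SKG against 7.82 to 11.1 CPM in WT NKT17 libraries, most of it Cd79b, and at most 5.95 CPM elsewhere. That of 6 markers of double-positive thymocytes was 14.3 to 47.5 CPM in SKG against 5.27 to 12.5 CPM in WT NKT17 libraries, most of it Cd8b1, and at most 13.8 CPM elsewhere, while Ms4a1, Rag1, Rag2 and Dntt had no count in SKG NKT17 libraries. The sum of 6 myeloid markers was 273 to 525 CPM in WT and 172 to 212 CPM in SKG NKT1 libraries and at most 17.1 CPM elsewhere, nearly all of it in NKT1 being Fcer1g (mean 400 CPM in WT and 194 CPM in SKG), and Itgam, Csf1r and Itgax had no count in NKT1 libraries. The sum of 5 stromal markers was 25.4 to 35.7 CPM in WT against 17.3 to 18.7 CPM in SKG NKT1, 96.3 to 137 against 80.4 to 104 CPM in NKT2, and 72.0 to 79.3 against 55.2 to 62.6 CPM in NKT17 libraries, most of it Pecam1, and Foxn1 had no count. That of 6 red cell markers was at most 1.45 CPM. The part of such cells, and of the shift in subset markers, in the results was not tested. In bulk libraries a lower level cannot be told apart from fewer cells that express the gene.

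Of the 10 genes, 8 were abundant enough to be tested. Spry4 had 0 counts in all 18 libraries, which allows up to 0.362 to 0.661 CPM depending on depth. Spred1 had 0 to 11 counts, the highest in the first WT NKT17 library, and was not tested. Per kilobase of exon, Spry2 was the most abundant of the 10 in WT NKT1 cells (226 ± 61.4 CPM per kb, SD, n = 3), ahead of Dusp2 (190 ± 199), which did not differ from it beyond the spread. In the other 5 groups Dusp2 ranked first, from 24.3 CPM per kb in WT NKT17 to 153 in SKG NKT1 cells. In WT NKT2 cells that rank rested on 1 library (46.3 ± 62.0 CPM per kb), and Spry2, at 23.7 ± 2.93, did not differ from it beyond the spread. Nor did Dusp2 (24.3 ± 18.7) and Spry2 (13.3 ± 6.99) in WT NKT17 cells, where the first library held 91.8 CPM of Dusp2 against 27.8 and 26.2 CPM. Spry1, Spred2 and Dusp4 stayed at or below 3.15 CPM per kb as group means in every group.

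Spry2, the most abundant Sprouty gene in every group but SKG NKT2, where Spry1 was above it (1.46 against 1.07 CPM per kb), was lower in SKG than in WT cells of every subset. In NKT1 cells it was at 475, 342 and 598 CPM in the WT libraries (replicates 1 to 3) and at 101, 68.5 and 64.6 CPM in the SKG libraries. The groups did not overlap, and the fall was 6.04-fold (log2 −2.59 ± 0.30 SE, adjusted p = 1.24e-04). In NKT2 cells the WT libraries held 49.1, 55.7 and 43.5 CPM and the SKG libraries 1.54, 1.96 and 3.21 CPM, from 7 to 20 counts each. Again no library overlapped, and the fall was 21.2-fold (log2 −4.41 ± 0.41 SE, adjusted p = 2.82e-06). In NKT17 cells the WT libraries held 23.0, 16.3 and 44.2 CPM and the SKG libraries 1.56, 1.57 and 1.69 CPM (9 to 11 counts), 17.3-fold lower (log2 −4.12 ± 0.43 SE, adjusted p = 1.11e-05). SKG NKT2 and NKT17 libraries were thus close to the limit that 3 counts set, whereas SKG NKT1 libraries, at 78.1 ± 20.0 CPM, were still above all WT NKT2 libraries.

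The ratio of the SKG effect in NKT2 to that in NKT1 cells was log2 −1.81 ± 0.51 (SE, adjusted p = 0.0807), which passed the threshold for a difference between subsets, as did 3.87% of all genes. It missed the threshold in 12 of 19 alternative fits, with adjusted p from 0.00306 to 0.198. The difference between NKT17 and NKT1 cells, log2 −1.52 ± 0.54, was not called (adjusted p = 0.174), nor was that between NKT17 and NKT2 cells (0.29 ± 0.68, adjusted p = 0.947).

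**Figure D1:**
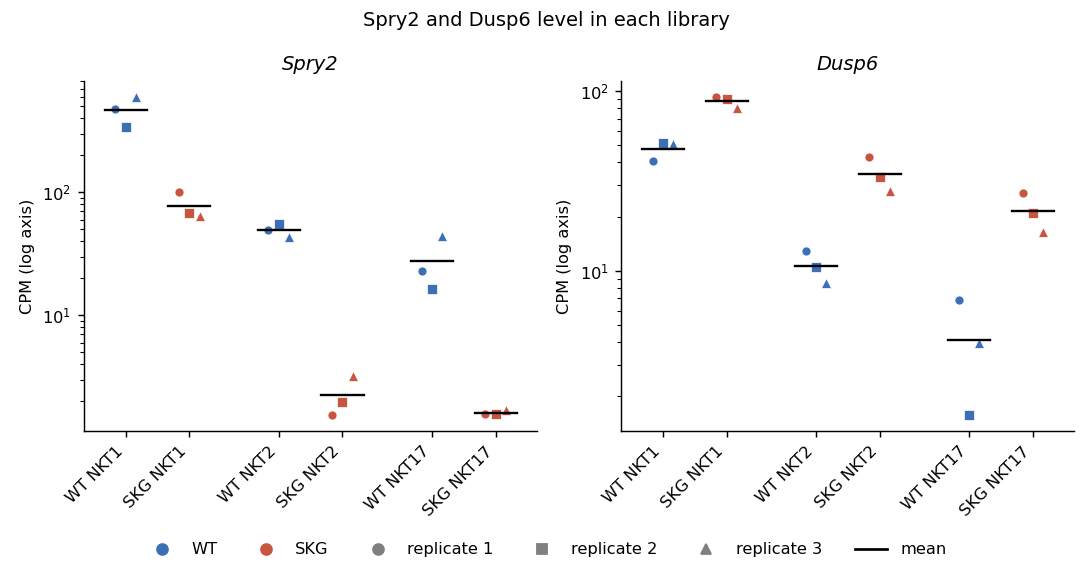
Level of Spry2 (left) and Dusp6 (right) in each library, in CPM on a log axis. WT is blue and SKG red, symbols give the replicate and lines the group mean of 3 libraries. Spry2 was lower and Dusp6 higher in SKG than in WT libraries of each subset with no overlap, and both were highest in NKT1 cells within each genotype.

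Dusp6, which encodes the cytoplasmic phosphatase of ERK, went the other way. In NKT1 cells the WT libraries held 40.8, 51.6 and 50.8 CPM and the SKG libraries 92.5, 90.2 and 80.0 CPM, 1.84-fold more (log2 0.88 ± 0.26 SE, adjusted p = 0.0827). All 3 SKG libraries were above all WT libraries, but the call was lost when any 1 of the 6 libraries was left out (adjusted p 0.108 to 0.209). In NKT2 cells the level was 12.9, 10.5 and 8.57 CPM in WT and 42.9, 33.1 and 27.6 CPM in SKG libraries, a rise of 3.25-fold (log2 1.70 ± 0.29 SE, adjusted p = 3.95e-04). In NKT17 cells it was 6.83, 1.57 and 3.98 CPM in WT and 26.9, 20.8 and 16.5 CPM in SKG libraries, a rise of 5.26-fold (log2 2.39 ± 0.32 SE, adjusted p = 2.28e-05). The SKG effect was larger in NKT17 than in NKT1 cells by log2 1.52 ± 0.41 (SE, adjusted p = 0.0507), where 4.17% of all genes were called for that difference. It was lost without SKG NKT1 replicate 1 or 3 or SKG NKT17 replicate 1 (adjusted p = 0.102, 0.104 and 0.153). The difference of that effect between NKT2 and NKT1 cells was not called (0.82 ± 0.39, adjusted p = 0.343), and 0 members were called between NKT17 and NKT2 cells by edgeR or DESeq2, with 0 at an unadjusted p under 0.05, against 2.19% of all genes called by edgeR.

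Because both genes were counted in the same libraries, their ratio does not depend on scaling. Dusp6 counts per 100 Spry2 counts were 8.60, 15.1 and 8.50 in WT NKT1 libraries and 91.5, 132 and 124 in SKG NKT1 libraries. In NKT2 they were 26.2, 18.8 and 19.7 in WT and 2790, 1690 and 860 in SKG libraries, and in NKT17 they were 29.7, 9.57 and 9.01 in WT and 1730, 1320 and 978 in SKG libraries. Every SKG library held a higher ratio than every WT library, whatever its subset, and within SKG the NKT1 libraries were the lowest. Within a subset that separation follows from the opposite differences of both genes and adds nothing to them. The SKG NKT2 and NKT17 ratios rest on only 7 to 20 Spry2 counts per library. The library titles carry a number whose meaning the labels do not give, 7_5, 7_10 and 7_11 in WT and 7_10, 7_11 and 7_21 in SKG libraries. Within the 2 numbers found in both genotypes, the SKG minus WT difference of Spry2 (log2 CPM) was −1.76 and −3.12 in NKT1, −4.89 and −4.25 in NKT2, and −3.13 and −4.54 in NKT17 cells. For Dusp6 it was 0.84 and 0.82, 2.00 and 1.91, and 3.83 and 2.29 in the same order. Since no SKG library overlapped a WT library of its subset, the sign of these differences adds nothing to the group comparison.

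Across the 10 genes, in the fit by group, Dusp6 was the only one called higher in SKG cells and Spry2 the only one called lower, in each of the 3 subsets. With the title number as a replicate block, Dusp2 and Dusp5 were also called higher in SKG NKT2 cells. Among all genes tested, 1.46% were called higher and 1.82% lower in SKG NKT1 cells, 3.90% and 4.05% in SKG NKT2 cells, and 3.83% and 4.54% in SKG NKT17 cells. Since values of these libraries were known when the genes were chosen, nothing is read from 1 of 8 against those shares. The median log2 fold change of the 8 tested members was −0.37, −0.06 and −0.14 in NKT1, NKT2 and NKT17 cells, and that of all genes was −0.01, 0 and 0.

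**Figure D2:**
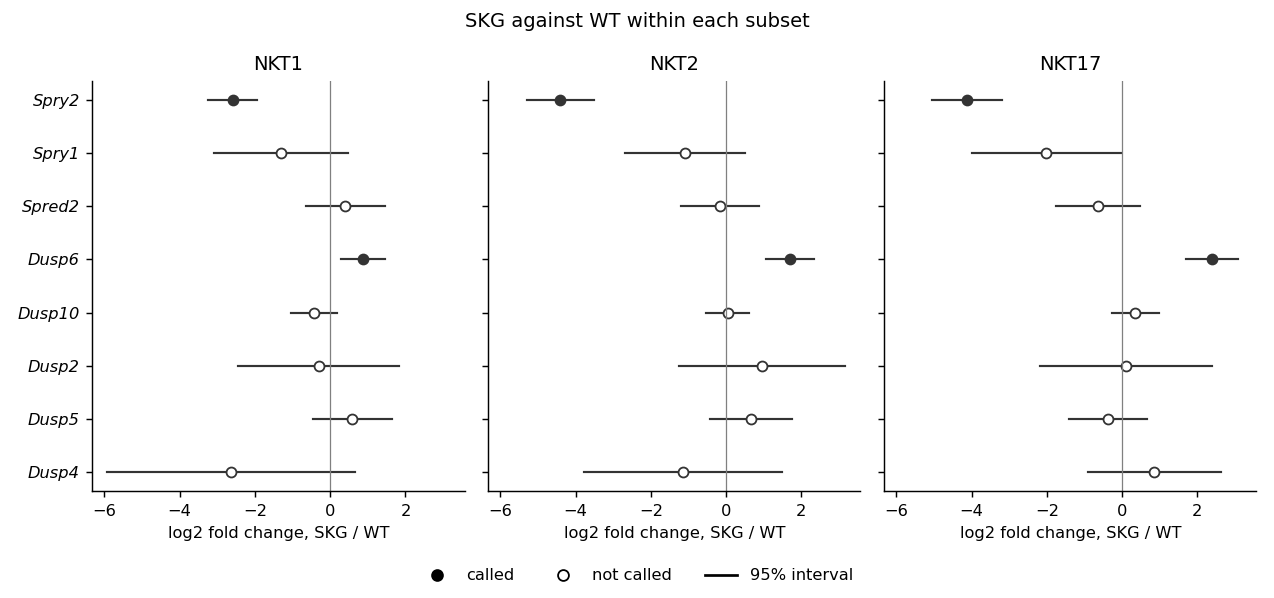
Log2 fold change of SKG over WT for the 8 tested genes in NKT1, NKT2 and NKT17 cells, with a 95% interval from the fold change and its SE (lines). Filled points passed the threshold: Spry2 to the left and Dusp6 to the right in each panel, and the other 6 genes in none.

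Of the remaining Sprouty and Spred genes, Spry1 lay lower in SKG cells on average without a call. It was at 4.71, 3.25 and 1.42 CPM in WT and 0, 2.29 and 1.56 CPM in SKG NKT1 libraries, at 11.0, 3.84 and 12.6 against 3.08, 2.74 and 6.90 CPM in NKT2, and at 4.10, 1.22 and 1.92 against 0.142, 0.349 and 1.31 CPM in NKT17 libraries. The groups overlapped in each subset, and the log2 fold changes of −1.30, −1.09 and −2.02 had adjusted p of 0.528, 0.426 and 0.195. In NKT17 the 95% interval of the fold change, −3.99 to −0.04, nearly reached 0, at 1 to 7 counts per SKG library. Spred2 ranged from 0.872 to 12.7 CPM, and its SKG differences (0.40 in NKT1, −0.16 in NKT2 and −0.65 in NKT17) were not called. The intervals of Spred2 spanned −1.77 to 1.45 in log2 over the 3 subsets, so changes of about that size in either direction could not be detected.

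Dusp10, the phosphatase of p38 and JNK, was not called between genotypes in any subset. NKT2 libraries held 58.3, 36.2 and 55.9 CPM in WT and 49.1, 39.9 and 64.9 CPM in SKG cells (log2 0.04, 95% interval −0.53 to 0.60). In NKT1 cells the level was 18.5, 13.2 and 13.8 CPM against 14.1, 11.0 and 8.84 CPM (log2 −0.43, interval −1.04 to 0.18), and in NKT17 cells 6.25, 8.35 and 10.7 CPM against 9.63, 8.55 and 14.5 CPM (log2 0.35, interval −0.28 to 0.98). The groups overlapped in each subset, and all 3 intervals lay between −1.04 and 0.98.

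Dusp2 and Dusp5, which encode nuclear phosphatases and are induced early after receptor engagement, varied widely among WT libraries. Dusp2 was at 818, 282 and 40.2 CPM in the WT NKT1 libraries, whereas the SKG NKT1 libraries held 269, 331 and 319 CPM. In NKT2 cells it was at 236, 20.3 and 21.8 CPM in WT and 250, 134 and 153 CPM in SKG libraries. In NKT17 cells it was at 91.8, 27.8 and 26.2 CPM in WT and 68.0, 41.0 and 45.6 CPM in SKG libraries. The first WT library, with the title number 7_5 that no SKG library carries, was the highest WT library in each subset, and the genotypes overlapped. Dusp5 followed with a smaller spread, at 27.4, 19.7 and 6.38 CPM in WT against 24.2, 27.9 and 28.6 CPM in SKG NKT1, 22.7, 5.24 and 9.21 against 22.9, 14.9 and 20.1 CPM in NKT2, and 41.0, 18.1 and 28.3 against 23.8, 15.2 and 28.2 CPM in NKT17 libraries. Its first WT library, too, was the highest WT library in each subset.

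Neither gene was called between genotypes in the fit by group over all libraries. In NKT2 cells the log2 fold change was 0.96 ± 1.01 (SE, adjusted p = 0.670) for Dusp2 and 0.65 ± 0.50 (adjusted p = 0.512) for Dusp5. With the title number as a replicate block in edgeR, both were called higher in SKG NKT2 cells. Dusp2 was higher by log2 2.67 (adjusted p = 0.0263) and Dusp5 by 1.10 (adjusted p = 0.0849). That fit called neither in NKT1 or NKT17 cells. It treats the number as shared between genotypes, but 0 of 18 pairs of a WT and an SKG library with the same number correlated above 0.1 in their deviations from group means. Without the 3 WT libraries numbered 7_5, an alternative chosen after the values were seen, both were called higher in SKG NKT2 cells, Dusp2 by log2 3.08 (adjusted p = 0.0313) and Dusp5 by 1.40 (adjusted p = 0.0389). In NKT1 and NKT17 cells neither was called without them, with Dusp2 at 0.94 in both and Dusp5 at 1.06 and −0.06 in log2. The summed level of 12 genes that respond to cell handling was 1540 to 2640 CPM in WT NKT2 and 2720 to 4100 CPM in SKG NKT2 libraries, which did not overlap, whereas the genotypes overlapped in NKT1 (2690 to 5430 and 3110 to 5750 CPM) and NKT17 cells (2350 to 5910 and 3930 to 6820 CPM). The first WT library was not the highest of its group in that sum in any subset (4280, 2080 and 4130 CPM), and the part of handling in the results was not tested. The handling list shares genes with the lists of this pathway. Ier2 is also among the genes induced by ERK signaling, and Dusp1 is a dual-specificity phosphatase gene. The sum is therefore not a separate measure of handling.

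**Figure D3:**
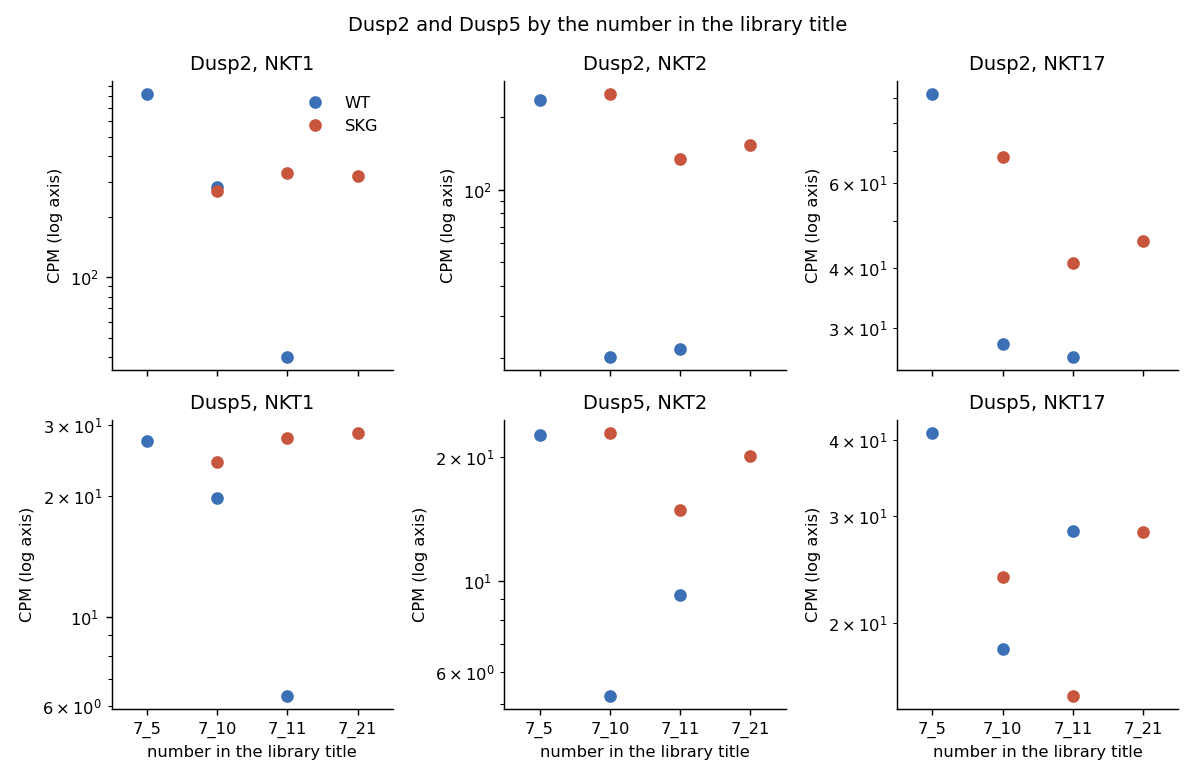
Level of Dusp2 (top) and Dusp5 (bottom) in CPM on a log axis, by the number in the library title, in NKT1, NKT2 and NKT17 cells; each panel has its own scale. WT libraries (blue) numbered 7_5 were above the other WT libraries in all 6 panels, and the NKT2 panels show the remaining WT libraries below all SKG libraries (red).

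Dusp4, another nuclear phosphatase, was low, with 0 to 45 counts per library. It was at 3.51, 1.04 and 2.88 CPM in WT and 6.37, 3.49 and 3.57 CPM in SKG NKT17 libraries, and at most 1.42 CPM elsewhere. No difference between genotypes was called (log2 0.85 ± 0.81 in NKT17 cells, adjusted p = 0.611).

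**Figure D4:**
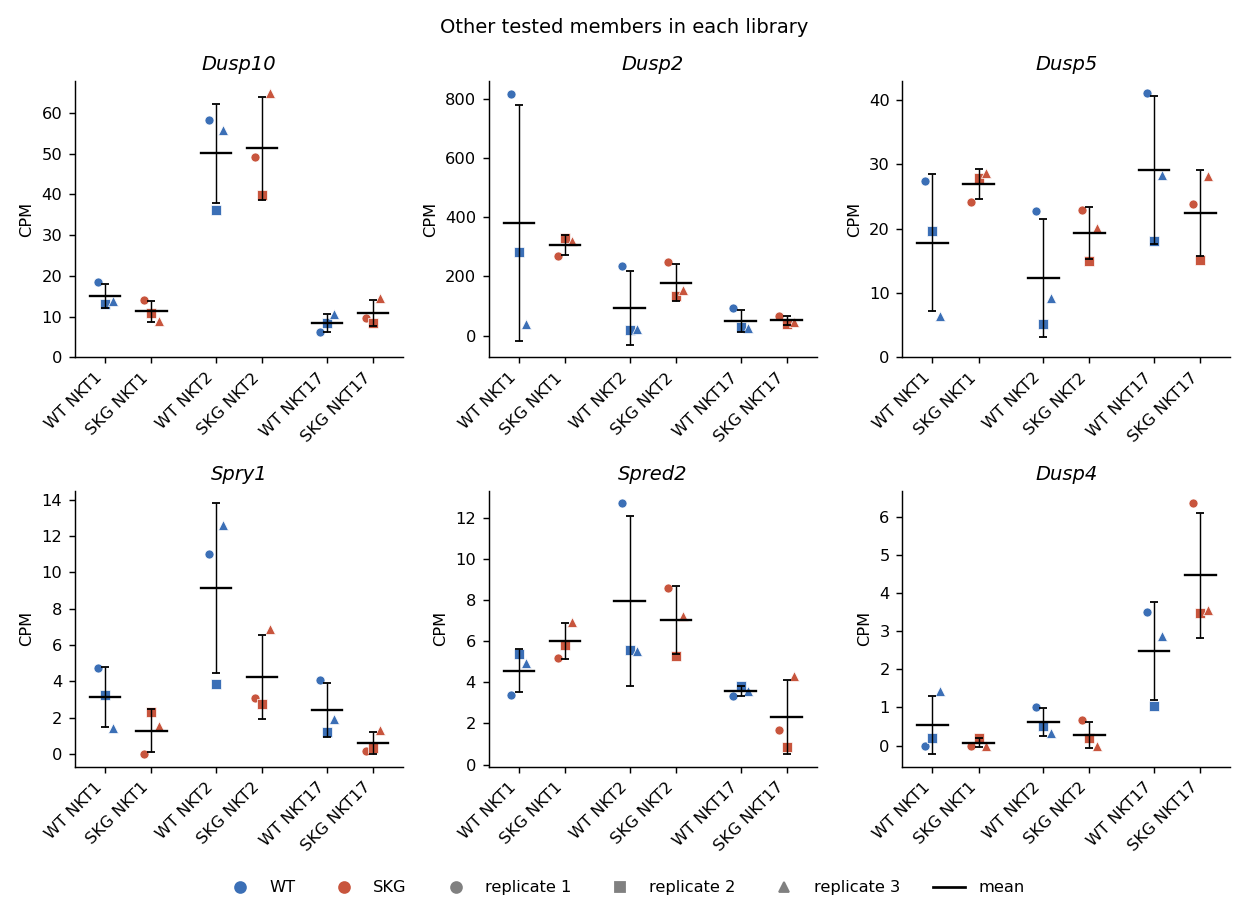
Level in CPM of the 6 other tested genes in each library, on linear axes with a scale per gene. WT is blue and SKG red, symbols give the replicate, and bars give the mean and SD of 3 libraries. Dusp10 was highest in NKT2 libraries of both genotypes, and the first WT library stood apart in Dusp2. Dusp4 was highest in NKT17 by group mean, but WT NKT1 replicate 3 (1.42 CPM) was above WT NKT17 replicate 2 (1.04 CPM).

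Members also differed in level between subsets within a genotype, and several of those calls were lost in alternative fits. Spry2 was highest in NKT1 cells. Its level in WT was 472 ± 128 CPM (SD, n = 3) in NKT1, 49.4 ± 6.14 in NKT2 and 27.9 ± 14.5 in NKT17 cells, 9.54-fold and 16.7-fold lower than in NKT1 (log2 3.25 and 4.07, adjusted p = 5.11e-07 and 4.90e-08). In SKG cells the differences from NKT1 were 33.5-fold and 48.1-fold (log2 5.07 and 5.59, adjusted p = 1.09e-07 and 3.53e-08). NKT2 and NKT17 cells were neighbours in that order. The libraries overlapped in WT, where the call (log2 −0.81, adjusted p = 0.0642) was lost in 7 of 13 alternative fits, and the SKG groups were not told apart (−0.52, adjusted p = 0.626).

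Dusp6 had the same order in both genotypes, NKT1 above NKT2 above NKT17, with no overlap between neighbours. In WT the steps were log2 2.17 from NKT2 to NKT1 and −1.38 from NKT2 to NKT17 (adjusted p = 3.62e-06 and 3.42e-03), and NKT1 was 11.7-fold above NKT17 (adjusted p = 8.10e-09). In SKG they were 1.35 and −0.68 (adjusted p = 6.83e-04 and 0.0831), and NKT1 was 4.07-fold above NKT17 (adjusted p = 4.83e-06). The SKG call between NKT17 and NKT2 was lost in 4 of 13 alternatives, without SKG NKT2 replicate 1 or 2 or SKG NKT17 replicate 2 or 3 (adjusted p 0.131 to 0.320). SKG NKT17 cells, at 21.4 CPM, were above all WT NKT2 libraries.

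Dusp10 marked NKT2 cells. It was higher there than in NKT1 cells by 3.29-fold in WT and 4.53-fold in SKG (adjusted p = 3.00e-05 and 2.78e-06), and higher than in NKT17 cells by 5.88-fold and 4.73-fold (adjusted p = 3.46e-07 and 1.93e-06). NKT1 exceeded NKT17 cells in WT (log2 0.84, adjusted p = 0.0291) and was not called in SKG (0.06, interval −0.56 to 0.69). The WT call was lost in 4 of 13 alternatives, among them the fit without the WT 7_5 libraries (0.49, adjusted p = 0.351).

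Spry1 was highest in NKT2 cells and lower in NKT17 cells by log2 −1.93 in WT (adjusted p = 0.0706) and −2.86 in SKG (adjusted p = 0.0225). The WT libraries overlapped, and the WT call was lost without WT NKT2 replicate 1 or 3 or WT NKT17 replicate 2 or 3 (adjusted p 0.158 to 0.220), the SKG call without SKG NKT17 replicate 1 or SKG NKT2 replicate 3 (0.113 and 0.127). Spred2 was lower in SKG NKT17 cells than in both NKT1 (1.39, NKT1 over NKT17, adjusted p = 0.0456) and NKT2 cells (−1.62, adjusted p = 0.0231), and in WT its NKT17 difference from NKT2 was just short of the threshold (−1.14, adjusted p = 0.102). The SKG call against NKT1 was lost without SKG NKT17 replicate 1 or 2 or SKG NKT1 replicate 3 (adjusted p 0.119 to 0.185), and that against NKT2 without SKG NKT17 replicate 1 or 2 (adjusted p up to 0.112). Dusp2 was higher in NKT1 than in NKT17 cells in both genotypes (log2 2.98, adjusted p = 0.0576, and 2.57, adjusted p = 0.0987). The first of these was lost in 4 of 13 alternatives, among them the fit without WT NKT1 replicate 1 (1.74, adjusted p = 0.272). The second was lost in 8 of 13 alternatives. Dusp5 was called only in WT, where NKT17 exceeded NKT2 cells (1.25, adjusted p = 0.0845), and that call was lost in 6 of 13 alternatives. Dusp4 was highest in NKT17 cells by group mean. In SKG it had 45, 20 and 19 counts there, against 0, 1 and 0 counts in NKT1 and 3, 1 and 0 counts in NKT2 libraries, too few for a fold (adjusted p = 1.36e-03 and 7.53e-03). In WT it was 4.76-fold higher than in NKT1 cells (adjusted p = 0.0884), at 0, 1 and 8 counts in the NKT1 libraries and with overlap. That call was lost in 8 of 12 alternatives, and WT NKT17 was not called against NKT2 cells (adjusted p = 0.147).

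Counted over the 8 tested members, NKT1 exceeded NKT2 cells in 2 and fell short of them in 1 in WT, where 13.7% of all genes were called in each direction, and in 2 and 1 in SKG, where 10.0% and 8.63% were. Between NKT1 and NKT17 cells 4 were higher and 1 lower in WT (11.2% and 13.5% of all genes) and 4 and 1 in SKG (10.2% and 12.5%). Between NKT17 and NKT2 cells 1 was higher and 4 lower in WT (11.0% and 8.97%) and 1 and 4 in SKG (10.5% and 8.27%). These comparisons share groups, so their counts are not independent of each other. Since values of these libraries were known when the genes were chosen, nothing is read from the counts against those shares.

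**Figure D5:**
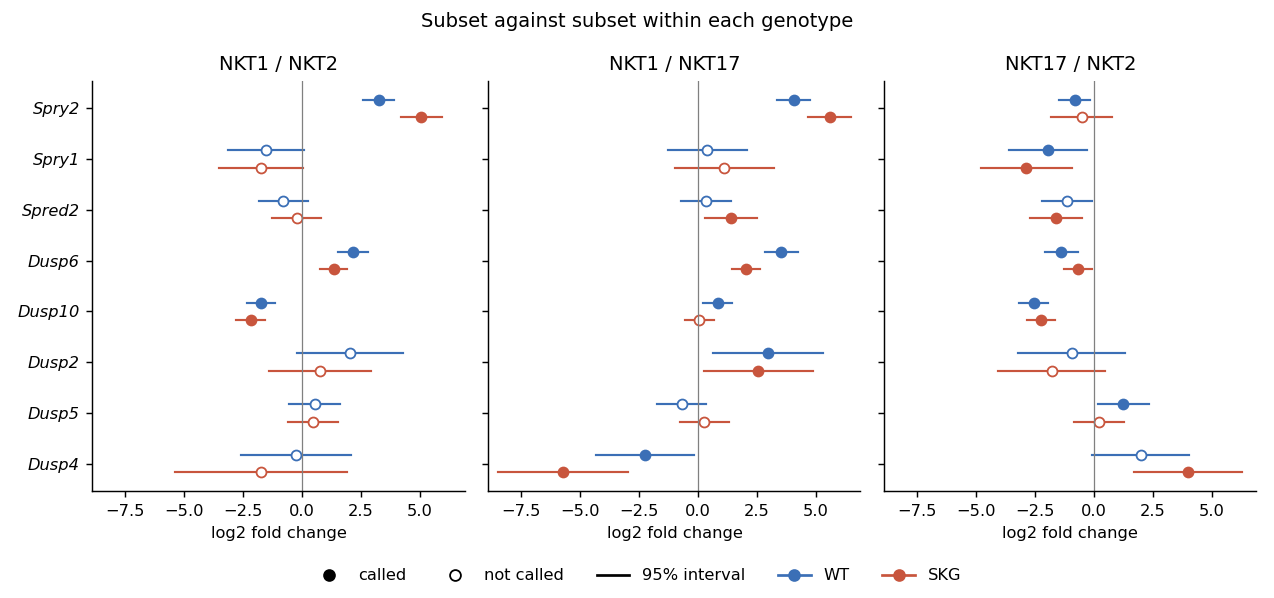
Log2 fold change between subsets for the 8 tested genes within WT (blue) and SKG (red), with 95% intervals (lines), for NKT1 over NKT2, NKT1 over NKT17 and NKT17 over NKT2. Filled points passed the threshold. Spry2 and Dusp6 lie to the right in both NKT1 panels, and Dusp10 lies to the left in both panels with NKT2 as the base. The SKG points of Dusp4 rest on 0 to 3 counts per NKT1 or NKT2 library.

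Of 17 further family members listed, 11 were tested and 0 were called by edgeR between SKG and WT cells in any subset, with 2, 3 and 0 at an unadjusted p under 0.05 in NKT1, NKT2 and NKT17 cells, and DESeq2 called 0, 2 and 0. Within WT, NKT1 exceeded NKT2 cells in 5 of them and fell below in 1 (13.7% of all genes in each direction), the counts for NKT1 against NKT17 were 2 and 4 (11.2% and 13.5%), and those for NKT17 against NKT2 were 5 and 0 (11.0% and 8.97%). Dusp3, a small phosphatase of ERK and JNK, was higher than in NKT2 cells by log2 2.55 in NKT1 and 2.15 in NKT17 cells, and Dusp7, a cytoplasmic ERK phosphatase, by 1.18 in NKT1 cells. Dusp16, a JNK phosphatase, was higher in NKT17 than in NKT2 cells by 3.75. Dusp12 was 0.73 higher in NKT17 than in NKT2 cells and −0.68 in NKT1 against NKT17 cells, Dusp28 was 0.89 higher in NKT1 than in NKT17 cells, and Dusp9, an ERK phosphatase, had 0 to 1 counts in WT NKT1 libraries against 6 to 12 in NKT2 and 8 to 22 in NKT17 libraries.

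Most genes that feed and carry the ERK pathway were not called between genotypes in any subset. The shares of all genes called higher in SKG were 1.46%, 3.90% and 3.83% in NKT1, NKT2 and NKT17 cells, and differences between subsets are not read from the counts that follow. Of 8 tested genes upstream of Ras, Rasgrp1, the main exchange factor of Ras in T cells, was higher in SKG NKT1 (log2 0.61, adjusted p = 0.0535) and NKT2 cells (1.09, adjusted p = 2.13e-04), and Sos1 in SKG NKT2 cells (1.81, adjusted p = 0.0190). Of 13 tested genes of the Ras, RAF, MEK and ERK relay, Rras2 (1.37) and Braf (1.14) were higher in SKG NKT2 cells, and edgeR called 0 in NKT1 or NKT17 cells, as did DESeq2, with 1 and 2 at an unadjusted p under 0.05. Of 12 other restraints of the pathway, Rasa3, a GTPase activator of Ras, was higher in SKG NKT2 (0.90) and NKT17 cells (0.71), and Etv3, a transcriptional repressor, in SKG NKT2 cells (0.77). Of 18 tested genes induced by ERK signaling, Ier5 was higher (0.89) and Ier3 lower (−2.12, at 1 to 7 counts per SKG library) in SKG NKT2 cells, and edgeR called 0 in NKT1 or NKT17 cells, with 4 and 1 at an unadjusted p under 0.05 and 2 and 0 called by DESeq2. Of 11 genes of the p38 and JNK relay edgeR called 0 in any subset, with 1, 1 and 4 at an unadjusted p under 0.05 in NKT1, NKT2 and NKT17 cells, and DESeq2 called 1, 0 and 0. Of the 12 handling genes Zfp36 was higher in SKG NKT2 cells (0.68).

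Between WT subsets the same lists held calls of both directions. Rasgrp1 was highest in NKT17 cells (log2 2.54 over NKT2, and −1.49 for NKT1 over NKT17), with NKT1 above NKT2 (1.05). Lat was highest in NKT17 cells as well (0.59 over NKT2, and −0.85 for NKT1 over NKT17), but its mean was lowest in NKT1 cells (435 CPM, against 520 in NKT2). Sos2 was highest in NKT1 cells (1.57 and 2.07 over NKT2 and NKT17), and Sos1 was 1.47 higher in NKT17 than in NKT2 cells. Braf was higher than in NKT2 in NKT1 (1.44) and NKT17 cells (0.95), and Rras2 was 0.82 higher in NKT1 than in either other subset. Of the 12 restraints, NKT1 cells exceeded NKT2 cells in 6 and fell below them in 2 (13.7% of all genes in each direction). The counts against NKT17 cells were 5 and 0 (11.2% and 13.5%). The list was written with earlier results of these data known, so nothing is read from these counts against those shares. Among those higher in NKT1 were Rasa3 (2.14 and 1.40 over NKT2 and NKT17), Rasal3 (0.87 and 0.71), Dok2 (0.94 over NKT17) and Etv3 (1.13 over NKT2). Between NKT17 and NKT2 cells Rasa3 and Rasa2 were higher (0.74 and 0.70) and Rasa1 lower (−1.36). Of the ERK-induced genes, Cd69 was highest in NKT1 (3.51 and 1.76 over NKT2 and NKT17, and 1.75 in NKT17 over NKT2), Fosl2 was lowest in NKT2 (2.55 in NKT1 and 2.48 in NKT17 over it), Ier3 was 3.03 higher in NKT1 than NKT17, and Myc was lowest in NKT17 cells (1.58 for NKT1 over NKT17, −1.27 for NKT17 over NKT2). The handling genes Ier2, Btg2 and Zfp36 were lowest in NKT2 cells (1.13, 1.23 and 0.72 in NKT1, and 0.64, 0.71 and 1.00 in NKT17 over it), Dusp1 was 1.87 higher in NKT1 than in NKT17, and Mapk8, the JNK1 gene, was −1.50 in NKT1 against NKT2 cells.

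Each tested member was matched to the 2 genes, of 8627 with a mean of at least 50 counts, whose log2 CPM followed it best over the 18 libraries. Spry2 was followed by Samsn1 (r = 0.952) and Sipa1 (r = 0.946), Dusp6 by Arhgef18 (0.934) and Dse (0.933), Dusp10 by Ets2 (0.934) and Plac8 (0.931), and Dusp2 by Zfp36l2 (0.931) and Prkcb (0.894). Dusp4 was followed by Maged1 (0.915) and Scp2 (0.904), Spred2 by Chst15 (0.890) and Tnpo1 (0.875), Dusp5 by Ank (0.874) and Ctdp1 (0.865), and Spry1 by Tpst1 (0.836) and Ipcef1 (0.832). The libraries fall into 6 groups, and these values describe a shared order of levels only.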

How the data were processed

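RNA-seq counts of 18 libraries were analysed. Per the labels and the study's methods, poly-A RNA was made into full-length cDNA by a Smart-seq2-like method, tagmented with Tn5 and sequenced as short single-end reads. The authors removed tRNA, rRNA, adapter and spike-in reads, aligned with TopHat (1.4.1 in the submitters' processing notes, which also list Bowtie 1.0.0, HTSeq 0.7.1 and the builds hg19 and mm10, whereas the methods name mm9), filtered low-complexity reads and counted reads per gene with htseq-count in union mode. The deposited values are raw counts per gene symbol, not normalized. The annotation and strand setting are not given in the sources used here. Of the table's columns, 2 belong to no listed sample and were not used.

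Libraries were joined to samples by title and grouped by the labelled genotype and subset. Nothing in the labels says that libraries of a group came from separate mice beyond the statement of independent experiments, so p-values measure the spread between these libraries. Pairs of libraries within a group differed beyond sampling noise (chi-square per degree of freedom 5.47 to 24.45). Genes were kept with filterByExpr by group (11118 of 15582 with a count), scaled by TMM (factors 0.928 to 1.07) and fitted in R 4.3.3 with the robust quasi-likelihood test of edgeR 4.0.16 over all 18 libraries and 6 groups (12 residual degrees of freedom, common biological coefficient of variation 21.1%). Tests were two-sided. SE was derived from the fold change and F. The 95% intervals use the t distribution at 12 residual degrees of freedom, so they can be wider than the p-value of edgeR's test implies. For Spry1 in WT NKT1 against NKT2 that unadjusted p was 0.0495, with an interval of −3.13 to 0.07. Calls used the study's thresholds. The script was tested on simulated data. Levels are CPM, counts over TMM-scaled depth (4391029 to 8895917 counts per library). PCR copies are counted as reads, so a floor of 3 counts covers counting error only. Exon lengths come from GENCODE M1 (NCBIM37) by symbol. Because the builds named above differ from each other, coordinates are given by the annotation and not by the counting.

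The members and gene lists were chosen with earlier results of these data known. By rule, all members were named, up to 3 called genes per list and comparison (SKG against WT, and WT subsets) with the smallest adjusted p, and the 2 genes most correlated with each member over log2 CPM (prior count 2). Marker genes of the subsets, B cells, myeloid cells, double-positive thymocytes, stroma and red cells were summed. Alternatives were DESeq2 1.42.0, RLE and upper-quartile scaling, no filter, the title number as a replicate block, only the libraries compared, and leaving out libraries.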

Additional observations from a re-analysis of the deposited data

Results flagged for a closer look

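The SKG effect on Spry2 differed between NKT2 and NKT1 cells by log2 −1.81 in the test of the difference itself (adjusted p = 0.0807, edgeR). That call was lost in 12 of 19 alternative fits. All 3 SKG libraries were below all 3 WT libraries in both subsets, which does not bear on a difference between the effects. The SKG effect on Dusp6 differed between NKT17 and NKT1 cells by log2 1.52 (adjusted p = 0.0507), a call lost in 3 of 19 alternative fits. All 3 SKG libraries were above all 3 WT libraries in both subsets, which again does not bear on that difference. Groups of 3 libraries were not tested for a sample far from the others.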

How the results depend on the processing

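Over all alternatives, single-gene values and counts gave no reversal of a called value; signs of uncalled values were not compared. Spry2 in SKG against WT cells stayed called in every alternative run (log2 −2.81 to −2.38 in NKT1, −4.80 to −4.22 in NKT2, −4.40 to −3.59 in NKT17), as did Dusp6 in NKT2 (1.51 to 1.92) and NKT17 cells (2.01 to 2.90). Of 13 alternatives Dusp6 in NKT1 cells was lost in 7, all of them with libraries of the compared groups left out. The fit with only the libraries compared kept the call. The cause of these and of the other changes was not tested. Members called between genotypes in NKT1 cells numbered 1 in place of 2 without the 3 WT libraries numbered 7_5 (chosen after seeing the data) and 1 to 1 with each library left out in turn. In NKT2 cells the count was 4 without those 3 libraries, and 2 to 3 with 1 left out. Leaving out 1 library gave 3 to 5 for NKT1 against NKT2 in WT, 2 to 5 for NKT1 against NKT17 and 3 to 4 for NKT17 against NKT2 in WT, 3 to 4 for NKT1 against NKT17 and 3 to 4 for NKT17 against NKT2 in SKG, and 0 to 1 and 0 to 2 for the SKG effect in NKT2 and in NKT17 against NKT1. With only the libraries compared, 2 members were called for NKT1 against NKT17 and 3 for NKT17 against NKT2 in WT, and 5 for NKT1 against NKT2 in SKG. Without the 7_5 libraries 3 were called for NKT1 against NKT17 in WT, and 0 for the SKG effect in NKT2 against NKT1. Without a filter 3 were called for NKT17 against NKT2 in WT and 0 for that effect, and DESeq2 called 2 for the SKG effect in NKT17 against NKT1. All genes called between genotypes in NKT1 numbered 364, and 207 with only those libraries. Those for the effect in NKT17 against NKT1 numbered 464, and 296 without SKG NKT17 replicate 3, and those for NKT17 against NKT2 numbered 244, and 157 without SKG NKT17 replicate 1. The title number is shared across subsets, but only 12 of 18 pairs of the same number and genotype correlated above 0.1 (−0.061 to 0.351, median 0.170), fewer than the rule for pairing required. Pairs of different numbers in a genotype had a median of −0.097 (3 of 36 above 0.1). Deviations from a group mean sum to 0, so that negative median is not separate support. Within their genotype 17 of 18 libraries correlated best with one of their own number, a hint that it marks something shared there. Between genotypes 0 of 18 pairs of the same number were above 0.1 (median 0.004), against 12 of 63 of different numbers (median 0.021). Sharing between WT and SKG libraries, which the block assumes, was thus not seen. With the title number as a replicate block, 4 members were called between genotypes in NKT2 (Dusp2 at 2.67 and Dusp5 at 1.10 joined Spry2 and Dusp6) and 0 for the effect in NKT2 against NKT1. Dusp2 was then also called for NKT1 against NKT2 in WT (2.27, adjusted p = 0.0112) and for NKT17 against NKT2 in SKG (−1.78, adjusted p = 0.0425), Dusp5 for NKT1 against NKT17 in WT (−0.80, adjusted p = 0.0876) and Spry1 for NKT1 against NKT2 in SKG (−1.80, adjusted p = 0.0972), while Dusp4 was lost for NKT1 against NKT17 in WT (−2.25, adjusted p = 0.110). Counts of 0 to 45 limit what Spry4, Spred1 and Dusp4 can show.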
